A study of Mus musculus with 6 samples.

Results

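The genes described here are 39 long non-coding RNA (lncRNA) genes that had almost no reads in control (Ctrl) epidermis and were counted in every triple knockout (TKO) sample. They were selected on the counts themselves. A gene was taken if it is annotated as lncRNA in GENCODE vM39, if its raw counts summed to 30 or less over the 3 Ctrl samples, and if it had 15 or more counts in each of the 3 TKO samples. The 39 genes were found among 9625 lncRNA genes, in a table of 55536 genes. Because the counts chose them, the difference between the groups is only described for these genes. Their calls in the fit across all genes are not read as a test of it. The same rule with the groups swapped was met by 18 lncRNA genes.

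Bulk RNA-seq was performed on basal cells of the back skin of E16.5 mouse embryos, sorted as Epcam+ and α6+. Both groups carried floxed Suv39h1 and Setdb1 alleles (Suv39h1 f/f, Setdb1 f/f) and lacked Suv39h2 (Suv39h2-/-), and both received tamoxifen. TKO embryos were K14CreERT2+, so that the recombinase was driven by the keratin 14 promoter in basal keratinocytes, and Ctrl embryos were K14CreERT2-. Ctrl therefore is not wild type, and the comparison shows the added loss of Suv39h1 and Setdb1 in a Suv39h2-deficient skin. The study describes the litters behind these samples as mosaic, which means that unrecombined cells can be present in the TKO samples. By the sex letter in their library names, 1 sample of each group was female (Ctrl replicate 1, TKO replicate 2) and 2 were male. The Ctrl libraries held 102159175, 136515436 and 104422632 counts, in the order of their replicate numbers, and the TKO libraries 116308383, 108957256 and 118413082. In such bulk samples, more cells that express a gene and more RNA per cell cannot be told apart.

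SUV39H1, SUV39H2 and SETDB1 are the histone methyltransferases that place most of the tri-methyl mark on lysine 9 of histone H3 (H3K9me3). This mark packs repeats, transposable elements and genes of other lineages into silent chromatin. Long non-coding RNAs are transcripts without a long reading frame. Many of them are cell type restricted, carry transposon-derived exons or start within transposon sequence, and most have no known function. Apart from Platr26, named as a pluripotency-associated transcript, the 39 genes have only clone or predicted gene names, and no role is given for them here.

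RefSeq holds a start site sequence (250 bases before to 50 bases after the start, build GRCm38.p6) for 19 of the 39 genes, matched by symbol. Those of 3 genes are shown because these have the highest TKO CPM among the 19, and that of 1700028I16Rik because it is the densest of the set in CpG, the dinucleotide that is methylated in silent DNA. Capitals mark each CpG. The windows lie at chr19:3197654-3197953 (minus strand), chr5:137856287-137856586 (plus strand), chr7:30881703-30882002 (plus strand) and chr10:82811873-82812172 (plus strand), in the order printed.
1700030N03Rik: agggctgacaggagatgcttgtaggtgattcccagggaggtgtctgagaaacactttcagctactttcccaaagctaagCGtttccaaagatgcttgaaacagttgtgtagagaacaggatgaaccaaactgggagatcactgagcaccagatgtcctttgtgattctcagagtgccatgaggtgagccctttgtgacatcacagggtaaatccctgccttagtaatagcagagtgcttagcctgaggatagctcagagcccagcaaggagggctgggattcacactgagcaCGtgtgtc
Gm36551: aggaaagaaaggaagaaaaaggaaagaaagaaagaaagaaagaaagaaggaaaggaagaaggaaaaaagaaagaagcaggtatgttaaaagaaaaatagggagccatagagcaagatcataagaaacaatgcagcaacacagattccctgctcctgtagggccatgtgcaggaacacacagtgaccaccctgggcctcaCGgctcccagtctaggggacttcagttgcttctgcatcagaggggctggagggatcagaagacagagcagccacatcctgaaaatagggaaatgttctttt
D7Ertd128e: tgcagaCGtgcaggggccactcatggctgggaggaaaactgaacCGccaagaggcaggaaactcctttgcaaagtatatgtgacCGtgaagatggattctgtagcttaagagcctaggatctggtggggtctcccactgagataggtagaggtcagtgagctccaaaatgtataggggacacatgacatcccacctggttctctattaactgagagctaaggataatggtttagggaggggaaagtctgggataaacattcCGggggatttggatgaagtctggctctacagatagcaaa
1700028I16Rik: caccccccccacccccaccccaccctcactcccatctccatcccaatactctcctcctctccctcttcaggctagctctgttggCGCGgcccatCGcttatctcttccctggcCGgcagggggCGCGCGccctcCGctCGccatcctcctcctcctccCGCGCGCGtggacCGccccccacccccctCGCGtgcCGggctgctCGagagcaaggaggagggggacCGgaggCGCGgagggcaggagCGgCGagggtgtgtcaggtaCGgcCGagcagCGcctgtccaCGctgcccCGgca

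The first 3 windows hold 2, 1 and 4 CpG, and that of 1700028I16Rik holds 28. The window of 1700030N03Rik is itself repeated, since 48.5% of its 31-base words occur at most once in the genome, against 100% for D7Ertd128e and 71.5% for Gm36551. Over the 21 windows of the 19 genes the median was 2 CpG, against 4 for the 3343 windows of lncRNA genes with 30 or fewer Ctrl counts and 7 for all 32851 windows. Only 2 of the 21 windows (9.52%) held 10 CpG or more, compared with 15.9% of windows of low-count lncRNA genes and 43.5% of all windows. The other CpG-dense one belongs to 9630001P10Rik, with 24.

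Short promoter motifs were searched for on both strands of the same windows. TATAAA was found in 2 of the 21 windows (9.52%), against 14.8% of windows of low-count lncRNA genes and 13.6% of all windows. In the same order, CCAAT was found in 4 (19.05%, 36.5% and 37.4%), GGGCGG in 2 (9.52%, 13.3% and 35.7%), CAGCTG in 5 (23.8%, 17.8% and 16.3%), TGANTCA in 1 (4.76%, 9.93% and 7.81%) and TGACGTCA in 0 (0%, 0.987% and 1.79%). None of the windows of 1700030N03Rik, Gm36551, D7Ertd128e, Gm11884 and Gm12865 held any of these letters. RefSeq starts can differ from the gene starts of GENCODE. The window of Gm11884, on the plus strand, is at chr4:23387415-23387714 in GRCm38.p6. Its GENCODE gene body is at chr4:23260747-23392503 in GRCm39, so this window may not lie at the GENCODE start. The same holds for the first window printed, that of 1700030N03Rik on the minus strand. That window is at chr19:3197654-3197953 in GRCm38.p6, and the GENCODE body of the gene is at chr19:3103071-3255592 in GRCm39.

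The 39 genes together had 229, 192 and 228 counts in Ctrl replicates 1, 2 and 3, and 3951, 8179 and 2911 counts in TKO replicates 1, 2 and 3. As CPM, the counts scaled to a common library size by TMM, this was 2.31, 1.49 and 2.12 in Ctrl and 33.6, 74.1 and 23.9 CPM in TKO. TKO replicate 2 stood highest and TKO replicate 3 lowest, 3.09-fold apart. The 3 genes with the highest CPM, 1700030N03Rik, Gm36551 and Gm29439, made up 46.0% of the TKO sum. Without them the sums were 2.28, 1.44 and 2.11 CPM in Ctrl and 19.4, 34.0 and 17.7 CPM in TKO. At these depths 3 counts, the floor used for a gene with no count, correspond to between 0.0232 and 0.0303 CPM. Floors and intervals given here cover counting error only.

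Most of the 39 genes had low counts even in TKO. The mean TKO level ranged from 0.165 to 9.58 CPM with a median of 0.455. It was above 1 CPM for 10 genes and above 1 CPM in every TKO sample for 5. The plot of all 39 genes by sample shows a few well-counted genes and a long tail near the limit.

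**Figure D1:**
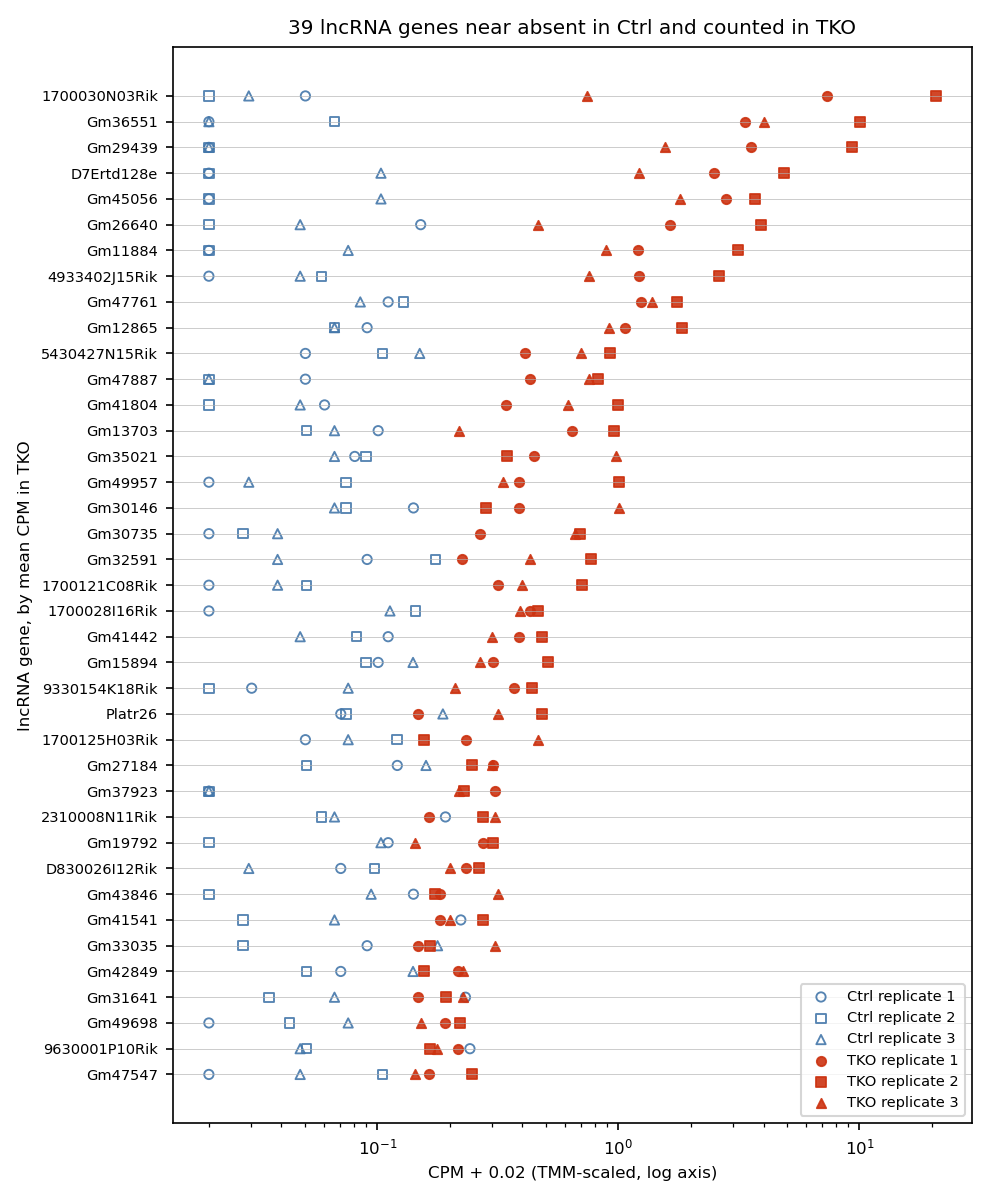
TMM-scaled CPM plus 0.02 (log axis) of each of the 39 lncRNA genes in 3 Ctrl samples (open blue) and 3 TKO samples (filled red), with one marker shape per replicate number. Genes are ordered by mean TKO CPM, which falls from 9.58 to 0.165, and the samples of the groups overlap for 6 genes.

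1700030N03Rik (chr19:3103071-3255592, minus strand, GRCm39) had the highest CPM. It was at 0.0303, 0 and 0.00928 CPM in Ctrl replicates 1, 2 and 3, and at 7.33, 20.7 and 0.724 CPM in TKO replicates 1, 2 and 3. All TKO samples lay above all Ctrl samples, but TKO replicate 3 (88 counts) was far below TKO replicate 2 (2285 counts), and the TKO mean of 9.58 ± 10.2 CPM (SD, n = 3) had a spread larger than itself. The gene is long, with 19 exon blocks over 152522 bases, and only 32.3% of the 31-base words of its transcripts occur at most once in the genome, so reads of related copies may have been assigned to it or lost from it. Its body holds 3 immunoglobulin variable pseudogenes and the processed pseudogene Gm42068 on the other strand. The nearest protein-coding gene, Ighmbp2, which encodes a helicase, lies 53468 bases away and was not called (log2 fold change -0.08, standard error 0.149).

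Gm36551 (chr5:137855307-137898687, plus strand) was at 0, 0.0464 and 0 CPM in Ctrl and at 3.32, 10.03 and 4.01 CPM in TKO replicates 1, 2 and 3. Its TKO samples lay well above Ctrl, with replicate 2 again highest. Its 14 exon blocks run through a region that also holds Pilrb1 and Pilrb2, which encode paired immunoglobulin-like receptors, and Cyp3a13, which encodes a cytochrome P450. These are on the other strand and share 258, 292 and 695 exonic bases with it. They were barely counted. Cyp3a13 had 8, 13 and 11 counts in Ctrl and 3, 12 and 0 in TKO, and Pilrb1 and Pilrb2 had 1 count each in all TKO samples together. The lncRNA Gm43495, which shares 97 exonic bases with Gm36551 on the same strand, had 0 counts in every Ctrl sample and 12, 83 and 18 in TKO replicates 1, 2 and 3, just short of the rule.

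Gm29439 and D7Ertd128e were the only pair of the 39 genes within 100 kb of each other. Gm29439 (chr7:30572158-30572758, plus strand) had 0 counts in all 3 Ctrl samples, and 3.53, 9.33 and 1.54 CPM in TKO replicates 1, 2 and 3. Against the floor of 3 counts per Ctrl sample its TKO mean of 4.80 ± 4.05 CPM (SD, n = 3) was at least 177-fold higher. D7Ertd128e (chr7:30584456-30585885, plus strand), which starts 11698 bases beyond its end, was at 0, 0 and 0.0835 CPM in Ctrl and at 2.48, 4.85 and 1.20 CPM in TKO replicates 1, 2 and 3. Both genes showed the same order of TKO samples, replicate 2 above 1 above 3, and in both the groups were far apart.

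Gm29439 lies within Cd22, which encodes a lectin of B cells, and D7Ertd128e lies 4689 bases beyond it, as the map of both loci shows. Of the 509 exonic bases of Gm29439, 479 are also exonic in Cd22 on the other strand. Cd22 itself had 28, 0 and 20 counts in Ctrl and 15, 17 and 17 in TKO, a log2 fold change of -0.14 (standard error 1.20; edgeR adjusted p = 0.9998). The strand setting of the counting is not given in the sources used here, so how reads of the shared bases were divided is uncertain. All 31-base words of Gm29439 and 88.7% of those of D7Ertd128e occur at most once in the genome.

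**Figure D2:**
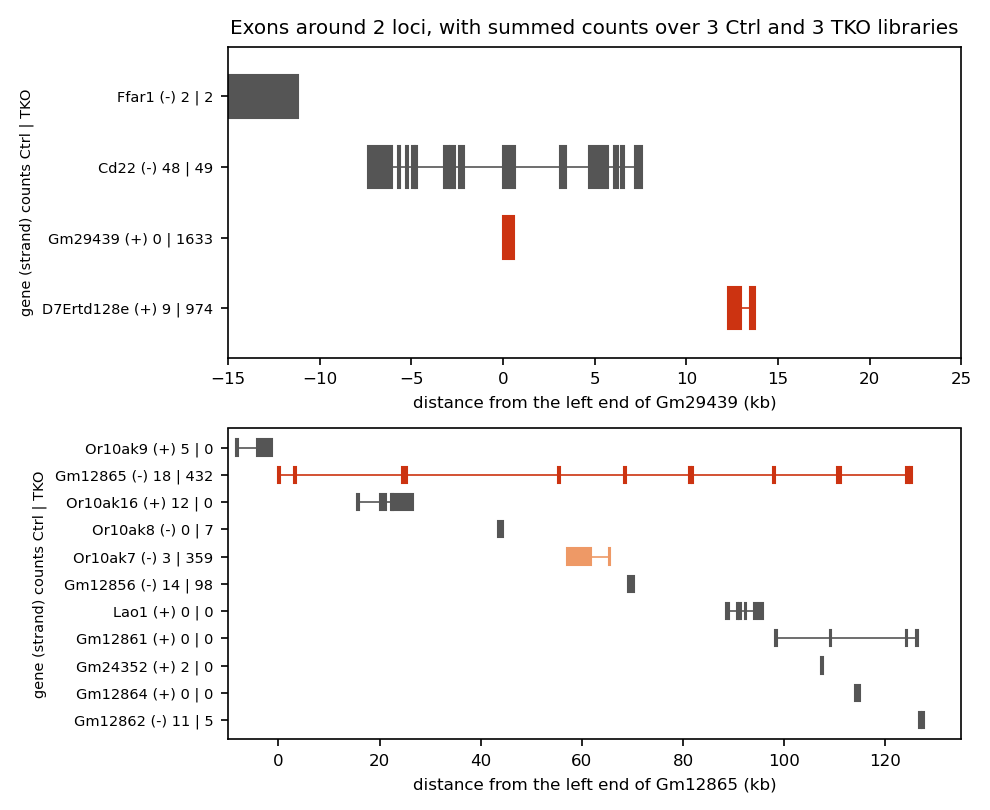
Exons (boxes) of every gene of the count table around Gm29439 with D7Ertd128e (top) and around Gm12865 (bottom), against the distance in kb from the left end of the named gene. Labels give the strand and the counts summed over 3 Ctrl and 3 TKO samples, with genes of the set in red and Or10ak7 in orange. Cd22 has 48 counts in Ctrl and 49 in TKO, while Gm29439 inside it has 0 and 1633 and D7Ertd128e beside it 9 and 974.

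Expressed per exonic length, the order of the genes changed. Gm29439 was highest at 9.43 CPM per exonic kb in TKO, followed by D7Ertd128e at 3.02, 1700030N03Rik at 1.61, Gm37923 at 1.44 and Gm36551 at 1.08. The median over the 39 genes was 0.208 CPM per exonic kb, compared with 0.414 for the 1312 other lncRNA genes that had at least 15 counts in each TKO sample. Given the spread of 1700030N03Rik and the counts of 34, 23 and 24 behind Gm37923, the order below Gm29439 and D7Ertd128e is not resolved.

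Gm45056 (chr7:81754880-81770180, minus strand) was at 0, 0 and 0.0835 CPM in Ctrl and at 2.78, 3.66 and 1.78 CPM in TKO replicates 1, 2 and 3. It was the steadiest of the first 5 genes, with a TKO mean of 2.74 ± 0.942 CPM (SD, n = 3), and 99.8% of its 31-base words are unique. Gm26640 (chr6:72903762-72934230, plus strand) ends 100 bases from Tmsb10, an abundant actin-binding thymosin gene on the other strand, and was at 0.131, 0 and 0.0278 CPM in Ctrl and at 1.61, 3.88 and 0.444 CPM in TKO. Its TKO samples lay above Ctrl, with TKO replicate 3 (54 counts) nearest to Ctrl replicate 1 (13 counts). Tmsb10 averaged 239.99 ± 45.7 CPM in the Ctrl and 325.0 ± 70.3 CPM in the TKO samples (SD, n = 3), a difference that was not called (log2 fold change 0.44, standard error 0.198, edgeR adjusted p = 0.833).

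Gm11884 (chr4:23260747-23392503, plus strand) and 4933402J15Rik (chr14:74592967-74607181, plus strand) lie far from any protein-coding gene. Gm11884 was at 0, 0 and 0.0557 CPM in Ctrl and at 1.19, 3.11 and 0.872 CPM in TKO replicates 1, 2 and 3. 4933402J15Rik was at 0, 0.0387 and 0.0278 CPM in Ctrl and at 1.20, 2.59 and 0.732 CPM in TKO. The groups of both were separate and TKO replicate 2 was highest. The nearest protein-coding genes are Pou3f2, which encodes a neural transcription factor, 772381 bases from Gm11884, and Htr2a, a serotonin receptor gene, 270163 bases from 4933402J15Rik. Pou3f2 was too low to be tested, and Htr2a gave a log2 fold change of -1.19 (standard error 0.724; edgeR adjusted p = 0.9998).

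Gm47761 (chr10:17193833-17198976, minus strand) had the lowest share of unique sequence of the 39 genes, since 4.01% of its 31-base words occur at most once in the genome, next to 4.95% for Gm47547 and 5.08% for Gm49698. It was at 0.0909, 0.108 and 0.0649 CPM in Ctrl and at 1.22, 1.74 and 1.36 CPM in TKO replicates 1, 2 and 3, with little spread in either group. At 30 Ctrl counts it met the limit exactly. How reads from its copies were assigned is not given in the sources used here, so its counts may not come from this locus. The nearest protein-coding gene, Cited2, which encodes a transcriptional co-regulator, is 399990 bases away.

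Gm12865 (chr4:118730229-118855158, minus strand) extends over a cluster of olfactory receptor genes. It was at 0.0707, 0.0464 and 0.0464 CPM in Ctrl and at 1.05, 1.81 and 0.896 CPM in TKO replicates 1, 2 and 3, and all TKO samples lay above all Ctrl samples. Inside it, on the same strand and sharing no exonic base, lies Or10ak7 (chr4:118787268-118795809), an olfactory receptor gene that had 0, 0 and 3 counts in Ctrl and 101, 125 and 133 in TKO. Or10ak7 is not a member of the set and was called higher in TKO (edgeR adjusted p = 0.0325, all 3 TKO samples above all Ctrl samples). The ratio of its summed counts was 115 (exact 95% interval 39.03 to 560.2). The call was lost without any one of Ctrl replicates 1, 2 and 3 and TKO replicates 1 and 2 (adjusted p from 0.0507 to 0.153), and with sex as a factor (adjusted p = 0.0751). The fitted log2 fold change was 6.06 to 6.77 in these settings, apart from that without Ctrl replicate 3, where no Ctrl count was left. Or10ak7 passed the filter on low counts through its TKO counts, and unspliced reads of Gm12865 cannot be told apart from reads of Or10ak7. Its value is therefore not independent of the choice of Gm12865, and nothing is read from its call. The pseudogene Gm12856, in the same interval and on the same strand, had 3, 8 and 3 counts in Ctrl and 47, 19 and 32 in TKO, which was not called (edgeR adjusted p = 0.524). Or10ak8, also inside Gm12865 on the same strand, had 0 counts in Ctrl and 7 in TKO, all in TKO replicate 2. On the other strand, Or10ak16 had 12 counts in Ctrl and 0 in TKO, Or10ak9, which lies beside Gm12865, had 5 and 0, and Lao1 had none.

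The last genes of the 12 with the highest CPM were 5430427N15Rik and Gm47887. 5430427N15Rik (chr5:103502172-103504564, minus strand), a single-exon gene, was at 0.0303, 0.0851 and 0.130 CPM in Ctrl and at 0.391, 0.906 and 0.682 CPM in TKO. Gm47887 (chr9:54972211-54974747, minus strand) had 3, 0 and 0 counts in Ctrl and 48, 89 and 89 in TKO. The groups did not overlap for either gene. Their nearest protein-coding genes, Ptpn13 (a tyrosine phosphatase, 68479 bases away) and Chrnb4 (a nicotinic receptor subunit, 16135 bases away), had log2 fold changes of -0.03 (standard error 0.134) and 0.71 (standard error 0.682), neither of which was called.

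Only one gene besides Gm29439 had no count in any Ctrl sample. This was Gm37923 (chr1:165919984-165920144, plus strand), of 161 bases, with 34, 23 and 24 counts in TKO. Its mean of 0.232 ± 0.05002 CPM (SD, n = 3) was at least 8.54-fold above the floor, and 64.9% of its 31-base words are unique. Gm30735 had 0, 1 and 2 counts in Ctrl and 29, 74 and 78 in TKO. In all, 15 of the 39 genes had fewer than 10 counts over the 3 Ctrl samples.

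The genes on either side of the limits are given as a description. With 30 Ctrl counts, Gm47761, Gm15894 and Platr26 were included. Platr26, which lies 14364 bases from the integrin gene Itga6, had 5, 7 and 18 counts in Ctrl and 15, 51 and 36 in TKO, and Gm15894 had 8, 9 and 13 in Ctrl and 33, 54 and 30 in TKO. Left out with 31 or 32 Ctrl counts were A730090N16Rik (7, 3 and 21 in Ctrl and 36, 41 and 15 in TKO), Atcayos (21, 6 and 4 against 26, 24 and 40) and 2410003I16Rik (9, 11 and 12 against 35, 66 and 16). At the TKO limit, Platr26, 1700125H03Rik (3, 13 and 6 against 25, 15 and 54) and Gm19792 (9, 0 and 9 against 30, 31 and 15) were among the 7 genes that entered with a lowest TKO count of 15. 9230111E07Rik, 5031415H12Rik and Gm21284 stayed out with a lowest TKO count of 14 and 24, 12 and 26 counts over Ctrl.

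The samples of the groups did not overlap for 33 of the 39 genes. The rule favours such separation, so nothing is read from this count, and among all 2107 lncRNA genes tested 7.5% had TKO samples that all lay above all Ctrl samples. The 6 genes that overlapped were Platr26, 2310008N11Rik, Gm41541, Gm33035, Gm31641 and 9630001P10Rik. For 4 of them the overlap came from Ctrl replicate 1 and for 2 from Ctrl replicate 3. For example, 9630001P10Rik had 22, 4 and 3 counts in Ctrl and 23, 16 and 19 in TKO.

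The TKO samples were not equal. TKO replicate 2 was the highest of the 3 for 28 of the 39 genes, TKO replicate 3 for 8 and TKO replicate 1 for 3. Among the 2067 other lncRNA genes that were tested and had a TKO count, the highest sample was TKO replicate 2 for 32.7%, replicate 3 for 32.1% and replicate 1 for 35.2%. The 3 other lncRNA genes called higher (Gm26672, 1700108F19Rik and Gm42047) were highest in TKO replicate 2 too, as were the called genes Atf7ip and Stag3, while Myh3 was highest in TKO replicate 3. TKO replicate 3 was the lowest for 19 genes. TKO replicate 2 is the only female sample of its group, so sex and sample cannot be told apart here. The median coefficient of variation across TKO samples was 39.2%, compared with 28.2% for the 1312 other lncRNA genes with at least 15 counts in each TKO sample. The sets were not matched in level (median 0.208 against 0.414 CPM per exonic kb in TKO). The larger spread is therefore not read as a trait of the 39 genes. Exceptions to the common order were Gm35021, with 50, 36 and 116 counts in TKO replicates 1, 2 and 3, and Gm30146, with 43, 29 and 120, both highest in replicate 3.

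The group with the mirror pattern was smaller and lower. The 18 lncRNA genes that were near absent in TKO had 422, 430 and 474 counts in Ctrl and 186, 149 and 73 in TKO in total. Led by Gm16133, with 55, 18 and 47 counts in Ctrl and 14, 7 and 0 in TKO, their mean Ctrl level reached at most 0.377 CPM. The next were Gm13496 (26, 36 and 36 against 6, 5 and 4), Gm50282 (15, 30 and 39 against 6, 11 and 10), Gm45469 (16, 27 and 39 against 19, 10 and 0) and C230038L03Rik (29, 25 and 25 against 8, 1 and 0). None of the 18 had 30 or more counts in each Ctrl sample, whereas 19 of the 39 genes had 30 or more in each TKO sample and 7 had 100 or more.

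**Figure D3:**
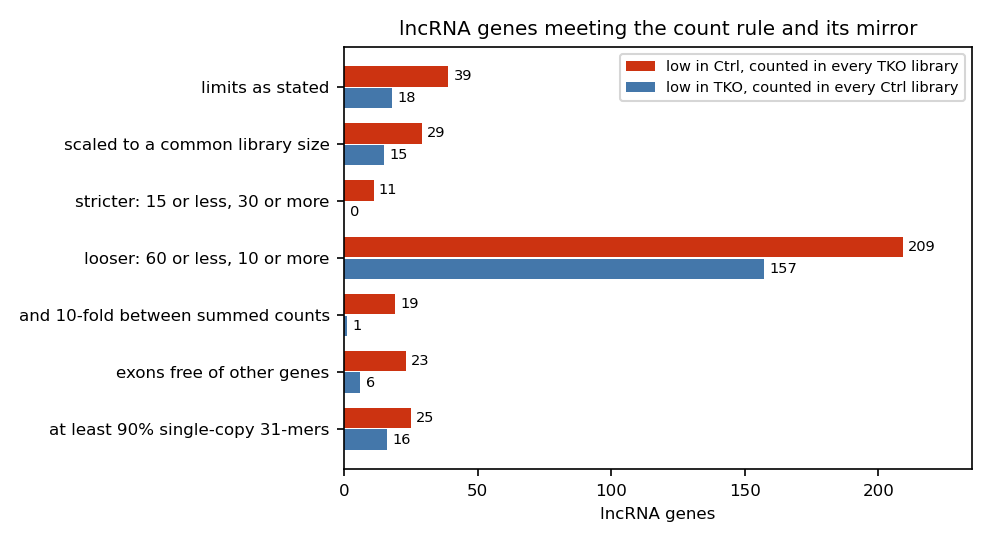
Number of lncRNA genes that were low in Ctrl and counted in every TKO sample (red) and of those with the groups swapped (blue), under the limits as stated and 6 other settings, on a linear axis from 0. With stricter limits 11 genes remain against 0, and with looser limits 209 against 157.

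Changing the limits changed the size of both sets. With at most 15 counts over the samples of the low group and at least 30 in each of the other, 11 lncRNA genes met the rule and 0 its mirror, and with at least a 10-fold difference between summed counts it was 19 against 1. With at most 60 counts and at least 10 it was 209 against 157, a larger gap in number but a smaller ratio than with the limits as stated. Leaving out one sample, with the summed limit lowered in proportion where the low group lost it, gave 41 against 36, 38 against 38 and 40 against 40 without Ctrl replicate 1, 2 or 3, and 80 against 22, 67 against 25 and 93 against 14 without TKO replicate 1, 2 or 3. Without Ctrl replicate 2 or 3 both sets were equal in number. A sample left out eases the demand for counts in every sample of its own group, so these counts move by construction. The rule and its mirror are then not matched, and nothing is read from their comparison. The plot of both sets under each of the other settings shows the counts side by side.

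In the fit across all genes, all 39 passed the filter on low counts, through their TKO counts. edgeR's quasi-likelihood test called 27 of 20622 genes higher in TKO (0.131%; adjusted p under 0.05 and log2 fold change above 1) and 0 lower (0%; 416 lower at an unadjusted p under 0.05). DESeq2 called 193 higher and 21 lower. Of the lncRNA genes tested, 8 of 2107 were called higher (0.38%), and 5 of these belong to the set, namely Gm36551, Gm29439, 4933402J15Rik, Gm47761 and Gm12865. DESeq2 called 19 of the 39, beside its 193 higher over all genes. Since the rule used the same contrast, nothing is read from these shares. The other 3 called lncRNA genes, Gm26672, 1700108F19Rik and Gm42047, had 96, 114 and 3103 Ctrl counts and so were not near absent in Ctrl. 1700030N03Rik and Gm26640 were not called.

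The 39 genes were spread over 17 chromosomes. Chromosomes 5, 7 and 8 had 4 each. There were 0 on chromosomes 11, 18 and X, where 4.37%, 3.25% and 1.69% of the low-count lncRNA genes lie. TKO replicate 2 is female, so no gene of the Y chromosome could meet the rule. Besides the pair on chromosome 7, the closest were Gm49957 and Gm49698 on chromosome 12 (1074 kb apart) and Platr26 and Gm13703 on chromosome 2 (1626 kb apart). Gm49957 had 0, 7 and 1 counts in Ctrl and 43, 109 and 38 in TKO, and Gm49698 had 0, 3 and 6 in Ctrl and 20, 22 and 16 in TKO. Both consist mainly of repeated sequence, with 23.9% and 5.08% of 31-base words at most once in the genome. Gm5953 and Gm46339, which are annotated as transcripts to be checked by experiment and share exonic bases with Gm49957, had 4, 38 and 9 against 142, 282 and 86 counts and 30, 15 and 2 against 237, 560 and 226 counts. Neither was called by edgeR (adjusted p = 0.217 and 0.121; range over the other settings 1.6e-05 to 0.859 and 3.75e-13 to 0.557). Both were called by DESeq2 (adjusted p = 0.000844 and 6.57e-08) and with no filter on low counts, and Gm46339 also with sex as a factor (adjusted p = 0.0413). Reads of these 3 genes cannot be told apart where they share exons on the same strand.

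Gene structure is set beside that of other lncRNA genes. The median gene body was 14215 bases and the median exonic length 2236 bases in 5 exon blocks, compared with 10236 bases, 1695 bases and 4 blocks for the 7595 lncRNA genes with 30 or fewer Ctrl counts. Unique sequence made up a median of 95.9% of 31-base words, compared with 98.5% for low-count lncRNA genes and 97.9% for the mirror set. However, 7 of the 39 genes (17.9%) had under 50% unique words, compared with 11.6% of low-count lncRNA genes and 0 of the 18 mirror genes. These 7 were 1700030N03Rik, Gm47761, Gm41804, Gm49957, Gm19792, Gm49698 and Gm47547. In contrast, Gm29439, 4933402J15Rik and Gm47887 were fully unique, and the plot of unique share against level shows well-counted genes at both ends.

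**Figure D4:**
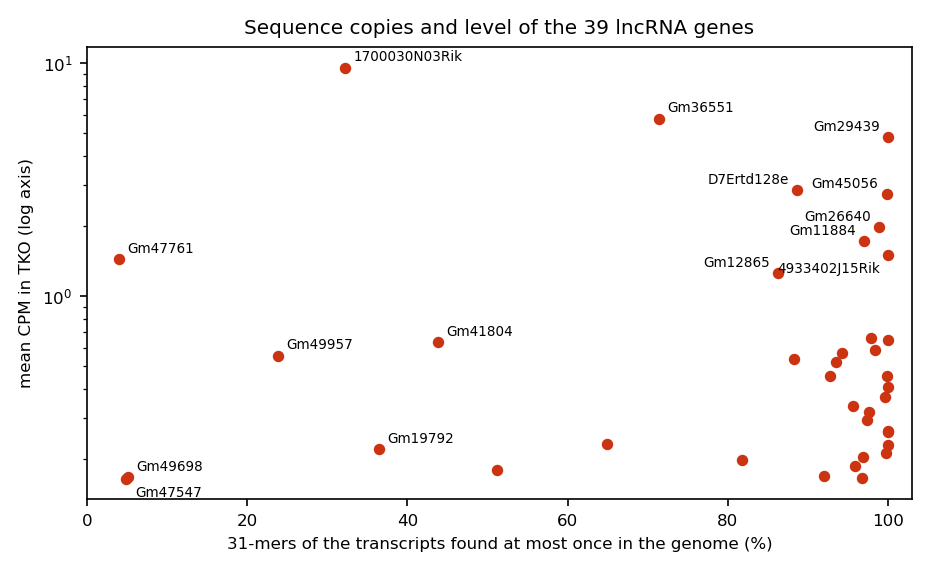
Mean CPM in TKO (log axis) of each of the 39 lncRNA genes against the percent of 31-base words of its transcripts that occur at most once in the genome (GRCm39). Most points lie above 90%, and 7 lie below 50%, among them 1700030N03Rik at 9.58 CPM and Gm47761 at 1.44 CPM.

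Many of the 39 genes overlap other genes. When each gene was placed in its closest class, 2 shared exonic bases with a gene on the same strand and 14 (35.9%) with a gene on the other strand only, 6 and 5 overlapped a gene on the same or the other strand without shared exonic bases, and 12 (30.8%) overlapped no gene of the table. Among low-count lncRNA genes 33.1% fell in the other-strand exon class and 38.6% overlapped no gene. Overlap on the same strand without shared exonic bases was the closest class of 15.4% of the 39 genes and 5.92% of low-count lncRNA genes. On the other strand it was the closest class of 12.8% and 16.498%. Genes of a closer class, such as Gm12865, can have such overlaps too and are not in these shares. Where exons on opposite strands overlap and the strand setting is not given, reads cannot be assigned with certainty. Examples are Gm13703 (Gpr155), Gm15894 (Il34), Gm27184 (Tmem185b), 1700125H03Rik (Csgalnact1), 9630001P10Rik (Fam184b) and Gm41442 (Ppp1r2 and Apod). Gm13703 shares 120 exonic bases with Gpr155, and had 8, 4 and 5 counts in Ctrl and 73, 104 and 24 in TKO while the log2 fold change of Gpr155 was -0.04 (standard error 0.239). 7 of the 39 genes started within 1 kb of another gene's start (17.9%, against 12.2% of low-count lncRNA genes). One of these, 1700121C08Rik, starts 68 bases from 4933427I04Rik in the opposite direction, and 4933427I04Rik was near absent in both groups (0.0101 CPM in Ctrl and 0.0250 in TKO).

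The counts of protein-coding neighbours were not used by the rule, and these genes were tested. Or10ak7 and Wnt2b overlap a gene of the set on the same strand, so their counts may not be separate from it. The overlapping protein-coding genes, or otherwise the nearest one, gave 43 genes, of which 34 were high enough for the test. edgeR called 1 of the 34 higher in TKO (2.94%), Or10ak7, and 0 lower, against 13 of 15000 protein-coding genes tested (0.0867%). The value of Or10ak7 is not independent of the choice of Gm12865, so nothing is read from this share. Among the 20 tested neighbours that do not overlap a gene of the set, 0 were called (3 higher and 0 lower at an unadjusted p under 0.05, and 1 called higher by DESeq2), so the call rests on a gene embedded in Gm12865. The median log2 fold change of the 34 was 0.14, compared with 0.00 for all protein-coding genes tested, and 21 of the 34 were above 0. It was 0.19 for the 20 that do not overlap and -0.01 for the 14 that do. With all protein-coding genes within 100 kb (93 tested), 1 was called and the median was 0.02. Without TKO replicate 3 the median of the 34 was -0.04. At an unadjusted p under 0.05, 5 of the 34 were higher (14.7%) and 0 lower, against 4.39% higher among all protein-coding genes tested (659 higher and 368 lower of 15000). Of the 93 within 100 kb, 8 were higher (8.60%) and 0 lower.

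These 5 genes are named after their values were seen. Besides Or10ak7, Sh3gl3, which encodes an endophilin of the synapse and lies 53408 bases from Gm45056, was at 1.05, 0.905 and 1.22 CPM in Ctrl and at 2.90, 4.55 and 1.94 CPM in TKO replicates 1, 2 and 3. All TKO samples lay above all Ctrl samples, in the order seen for Gm45056, but the gene was not called by edgeR (log2 fold change 1.56, standard error 0.390, adjusted p = 0.290) and was called by DESeq2 (adjusted p = 0.00623) and with no filter on low counts (adjusted p = 0.0339). Wnt2b, a Wnt ligand gene in whose body Gm43846 lies on the same strand, was at 1.53, 2.19 and 2.55 CPM in Ctrl and at 3.09, 5.43 and 3.48 CPM in TKO (log2 fold change 0.93, standard error 0.342, edgeR adjusted p = 0.688). Txnrd1, a thioredoxin reductase gene 9538 bases from 1700028I16Rik, averaged 109.5 ± 0.319 CPM in the Ctrl and 144 ± 26.9 CPM in the TKO samples (SD, n = 3; log2 fold change 0.40, edgeR adjusted p = 0.725). Gm3604, 26986 bases from Gm19792, went from 1.10 ± 0.581 to 2.49 ± 0.761 CPM (SD, n = 3; log2 fold change 1.18, edgeR adjusted p = 0.736). The plot of neighbours by distance shows Or10ak7 alone far from 0.

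**Figure D5:**
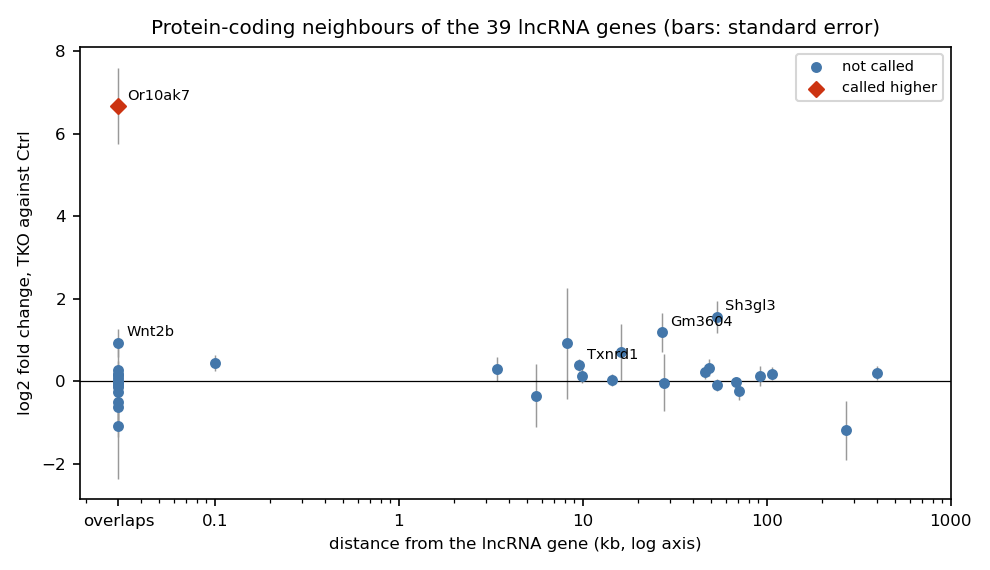
Log2 fold change (TKO against Ctrl, bars give the standard error) of the 34 tested protein-coding genes that overlap or lie nearest to the 39 lncRNA genes, against the distance in kb (log axis). Or10ak7 (red) at 6.67 is the only gene called, and the named others had an unadjusted p under 0.05.

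Among 33 genes of H3K9 methylation and H3K9me3 silencing, all tested, edgeR called 1 higher in TKO (3.03%, against 0.0867% of protein-coding genes tested) and 0 lower. With an unadjusted p under 0.05, 4 were higher (12.1%, against 4.39%) and 1 lower, and DESeq2 called 1 higher and 0 lower. The list was chosen with earlier results of these data known, so nothing is read from these shares. The called gene was Atf7ip, which encodes a partner that stabilises SETDB1, at 167, 177 and 219 CPM in Ctrl and 360, 469 and 385 CPM in TKO (log2 fold change 1.11, standard error 0.164, edgeR adjusted p = 0.0429, higher in all 3 TKO samples). The call was lost without any one of Ctrl replicates 1, 2 and 3 and TKO replicates 1 and 2 (adjusted p from 0.0602 to 0.270), with at least 10 counts in every sample (adjusted p = 0.0575) and with sex as a factor (adjusted p = 0.103), while the log2 fold change was 0.99 to 1.23 in these settings. Setdb1 was at 126, 118 and 121 CPM in Ctrl and at 95.3, 62.3 and 74.9 CPM in TKO replicates 1, 2 and 3 (log2 fold change -0.65, standard error 0.161, edgeR adjusted p = 0.286). Its adjusted p was 0.0449 with DESeq2 and 0.00498 by edgeR with no filter on low counts, and the fold change stayed short of the limit for a call. The groups did not overlap. The deleted exons are not counted separately, so the gene count does not measure recombination. Suv39h1 was at 88.7, 78.5 and 84.0 CPM in Ctrl and at 75.6, 68.9 and 89.4 CPM in TKO, where replicate 3 lay above every Ctrl sample (log2 fold change -0.10, edgeR adjusted p = 0.9998). Suv39h2, deleted in both groups by their labels, was counted at 15.9, 17.1 and 15.6 CPM in Ctrl and at 18.9, 16.0 and 17.5 CPM in TKO (log2 fold change 0.11, edgeR adjusted p = 0.9998). Which exons the alleles lack is not given in the sources used here, so none of these gene counts checks the genotype.

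Characterised lncRNAs were examined as a group. Of 48 found in the table, which include Malat1, Neat1, H19 and Meg3, 40 were tested and 0 were called in either direction by edgeR (0 higher and 1 lower, Miat, at an unadjusted p under 0.05, and 1 called lower by DESeq2). Their median log2 fold change was -0.10, and none is among the 39. The number of lncRNA genes with at least 15 counts was 1777, 1748 and 1830 in Ctrl and 1841, 1941 and 1881 in TKO. With at least 1 count it was 4909, 3450 and 4709 in Ctrl and 3609, 3871 and 3170 in TKO, so that more lncRNA genes with 15 counts in TKO did not go with more lncRNA genes detected at all. Together lncRNA genes took 1.66%, 1.15% and 1.37% of the counts in Ctrl and 1.36%, 1.67% and 1.35% in TKO.

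Markers of the sorted cells and of other cell types were summed in each sample. The 8 basal keratinocyte markers, led by Krt5, gave 24329, 24101 and 18108 CPM in Ctrl and 15025, 16826 and 19231 CPM in TKO, and edgeR called 0 of them (0 higher and 1 lower at an unadjusted p under 0.05, and 1 called lower by DESeq2). Skeletal muscle and germ cell markers were higher in TKO in sum, from low levels. The 9 skeletal muscle markers, with Ttn the most abundant, summed to 3.92, 11.2 and 7.84 CPM in Ctrl and 35.9, 37.1 and 36.2 CPM in TKO, and of them Myh3, an embryonic myosin gene, rose (log2 fold change 2.61, standard error 0.336, edgeR adjusted p = 0.0211, higher in all 3 TKO samples; 0.0595 to 0.122 without any one of Ctrl replicates 1, 2 and 3 and TKO replicates 1 and 2, and 0.0533 with sex as a factor). The 7 germ cell markers summed to 16.4, 21.9 and 25.1 CPM in Ctrl and 61.1, 101 and 66.2 CPM in TKO, mostly from Tdrd1, and Stag3, which encodes a cohesin subunit of meiosis, rose (1.91, 1.40 and 2.63 CPM in Ctrl and 18.6, 28.4 and 23.8 CPM in TKO, edgeR adjusted p = 0.000974). At an unadjusted p under 0.05, 5 of the muscle and 3 of the germ cell markers were higher and 0 lower, and DESeq2 called 5 and 3 higher. Of all 15000 protein-coding genes tested, 659 were higher (4.39%) and 368 lower at that limit. DESeq2 called 127 of them higher and 18 lower. The marker lists were chosen with earlier results of these data known, so their counts are only described. The germ cell helicase gene Ddx4 was at 0.0606, 0.0619 and 0.0928 CPM in Ctrl and at 0.433, 0.525 and 0.378 CPM in TKO, with all TKO samples above all Ctrl samples (edgeR adjusted p = 0.296). Mael was at 0 in Ctrl and at 0, 0.181 and 0.460 CPM in TKO, and Sycp3 was at 0, 0.0464 and 0 CPM in Ctrl and at 0.263, 0.217 and 0 CPM in TKO. Dazl and Dppa3 were at or under 0.189 CPM in every sample. The part of these cell types in the counts of the 39 lncRNA genes was not tested.

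The remaining lists had 0 genes called by edgeR. The 5 Merkel cell markers, led by Krt8, summed to 7.10, 8.34 and 7.14 CPM in Ctrl and 2.45, 1.49 and 2.58 CPM in TKO, with 0 called and all 4 that were tested lower at an unadjusted p under 0.05 (2 called lower by DESeq2). Fibroblast markers summed to 1203, 3358 and 3009 CPM in Ctrl and 2162, 2564 and 2807 CPM in TKO, and immune markers to 5.35, 9.91 and 3.59 CPM in Ctrl and 2.18, 13.3 and 5.07 CPM in TKO. Endothelial markers summed to 24.0, 22.7 and 33.1 CPM in Ctrl and 21.6, 54.2 and 47.6 CPM in TKO. Suprabasal keratinocyte markers gave 18626, 18218 and 20100 CPM in Ctrl and 16288, 12319 and 13068 CPM in TKO. edgeR called no gene in these lists or in those for hair follicle (5 genes), melanocyte (6) and Schwann or neural cells (5). At an unadjusted p under 0.05, 2 suprabasal markers were lower and 1 melanocyte and 1 endothelial marker were higher, and DESeq2 called 1 melanocyte marker higher. The part of these cell types in the counts of the 39 genes was not tested.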

How the data were processed

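The authors depleted rRNA, sequenced read pairs, trimmed them with fastp, aligned them with STAR, and deposited one raw count for each Ensembl gene and sample, 6 samples in all, without normalization or pooling. The submitters' processing notes name GRCm38, the study's methods another build, and the counting program, its annotation and its strand setting are not given in the sources used here. The table holds identifiers only, so gene types and positions were taken by identifier from GENCODE vM39 (51477 of 55536 matched, holding 86.4% to 94.1% of each sample's counts). The 39 lncRNA genes, the lists and the tests were chosen with earlier results of these data known.

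Counts were fitted with edgeR 4.0.16 in R 4.3.3 (filterByExpr with minimum count 10 and minimum total 15, TMM, glmQLFit robust, glmQLFTest), which left 20622 genes. Genes with a Benjamini-Hochberg adjusted p under 0.05 and a log2 fold change beyond 1 in either direction were called. Standard errors are the fold change divided by the square root of F. CPM used TMM library sizes. The sex letter of the library names separates only the female sample of each group from the male ones. The study describes its replicates as biological, so the spread between them is taken to include that between embryos. Alternatives were DESeq2 1.42.0, RLE factors, other filters, the replicate number as a block, sex as a factor, non-robust fitting, other limits and each sample left out.

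Named were the 12 genes with the highest mean TKO CPM, up to 5 without Ctrl counts, those within 100 kb of each other, the 3 on either side of each limit, genes overlapping or nearest to them, called genes within 100 kb, 5 mirror genes and called genes of the lists. Genes named outside this rule are examples of a count or were chosen after their values were seen. Repeated sequence was measured as the share of 31-base words of a gene's transcripts found at most once in GRCm39, in Python 3.11.15. This was chosen after seeing the data, since the genome used was not repeat-masked. The ratio of Or10ak7 counts has an exact binomial interval at 95%. Figures were drawn with matplotlib 3.10.9.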

Additional observations from a re-analysis of the deposited data

Results flagged for a closer look

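The count rule, applied without the annotation, was also met by 6 of 4059 identifiers that are not in GENCODE vM39, against 0 for the mirror rule. Over all 55536 genes it was met by 134, and its mirror by 66. The rule chose these 6 rows on their counts, so nothing is read from the difference between their groups. The 6 entered none of the comparisons of lncRNA genes. Together they had 43, 21 and 30 counts in Ctrl and 179, 225 and 205 in TKO. One of them, ENSMUSG00000073765, had 0 counts in every Ctrl sample and 44, 38 and 53 in TKO, and ENSMUSG00000105444 had 0, 4 and 0 in Ctrl and 18, 46 and 38 in TKO. Their gene types are not known here.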

How the results depend on the processing

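The set of 39 lncRNA genes against 18 with the groups swapped became 29 against 15 with counts scaled to a common library size, 11 against 0 with stricter and 209 against 157 with looser limits, 19 against 1 with a 10-fold difference added, 23 against 6 with exons free of other genes and 25 against 16 with at least 90% unique words (the last chosen after seeing the data). With one sample left out and the summed limit lowered in proportion, the counts ranged from 38 to 93 and from 14 to 40. They were equal without Ctrl replicate 2 (38 against 38) or 3 (40 against 40). The rule and its mirror are not matched with a sample left out, so nothing is read from these counts.

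The 27 genes called higher and 0 called lower became 193 and 21 with DESeq2, 213 and 22 with no filter on low counts, and 9 and 0 with at least 10 counts in every sample. They ranged from 7 to 65 and from 0 to 16 with one sample left out. With the replicate number as a block they were 44 and 1. Same-numbered samples deviated together with correlations of 0.168, 0.0873 and 0.127. The main fit did not take the numbers as pairs. Whether they are pairs is not settled, so the main calls and their p-values may ignore a real pairing. Every sample correlated best with its own number (differently numbered samples reached at most 0.0398), a hint from the data. The library names of same-numbered samples also carry consecutive numbers. The study uses Cre-negative littermates as controls, but which of these samples share a litter is not given in the sources used here. Of the 39 genes, 19 were called with DESeq2, beside 193 higher over all genes, and 6 with the block, beside 44. Since the rule used the same contrast, nothing is read from these counts.

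The 1 called neighbour became 2 with DESeq2, 3 with no filter, and 0 with 10 counts in every sample, with sex as a factor and among neighbours that do not overlap, and 0 to 1 with one sample left out. The neighbours' median log2 fold change was 0.0155 with all genes within 100 kb and ranged from -0.0444 (without TKO replicate 3) to 0.216 with one sample left out. The 1 called H3K9 silencing gene became 0 with 10 counts in every sample and with sex as a factor, and 0 to 1 with one sample left out. The 0 characterised lncRNAs became 1 with DESeq2 and with no filter. The cause of these changes was not tested.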

Other observations

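The rule was also met by genes of other types, which differ in their number of genes. Over all 55536 genes it was met by 134, and its mirror by 66. The 9625 lncRNA genes gave 39 against 18 and the 21571 protein-coding genes 40 against 34. The 3219 transcripts to be checked by experiment gave 16 against 6, and the 9264 processed pseudogenes 7 against 5. Of 944 transcribed unprocessed pseudogenes it was 8 against 0, of 2037 unprocessed pseudogenes 5 against 1 and of 928 transcribed processed pseudogenes 5 against 0. These are counts without a test.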
